A study of Mus musculus with 5 samples.

Results

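Glucose, fructose, lactate and urate cross kidney membranes through carriers of the Slc2 and Slc5 families, and 10 of these genes are described here: Slc5a1, Slc5a2, Slc5a8, Slc5a10, Slc5a12, Slc2a1, Slc2a2, Slc2a4, Slc2a5 and Slc2a9. They were chosen by symbol, from a list of 10 names, among the 24563 genes that the array's probes could be assigned to. All 10 were found, with 11 probes. The study measured gene expression on 5 one-colour microarrays, each for 1 group of C57BL/6 tissue: embryonic kidney of stage E13.5, newborn kidney (P0, the day of birth), kidney of 8-week-old mice, and tissue taken 2 weeks or 4 weeks after a kidney bud was transplanted. The design text names the expression of genes related to kidney development in the transplants and the kidneys as the subject. The cells the buds were made from, the site of transplantation, the host and the number of animals behind each RNA are not given in the labels used here. No group had a second array, so no difference has a replicate check, no p-value can be given, and each value describes that array alone.

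In the kidney, glucose filtered at the glomerulus is taken back by the proximal tubule. Sodium-coupled carriers of the Slc5 family (SGLT) pull it in from the lumen, and facilitative carriers of the Slc2 family (GLUT) let it out on the blood side. Slc5a2 (SGLT2) works with high capacity in the early segments and Slc5a1 (SGLT1) with high affinity in the later ones, while Slc2a2 (GLUT2) and Slc2a1 (GLUT1) are the exit routes. The Slc5 family also holds carriers of lactate and other monocarboxylates, and the Slc2 family carriers of fructose and urate and the insulin-responsive carrier of fat and muscle, Slc2a4 (GLUT4).

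Levels are log2 of the processed intensity less log2 of the array's 75th percentile, so a level of 0 is the 75th percentile of that array's gene spots and 1 unit is a 2-fold difference. The percentile lay between 1170.2 (8-week kidney) and 1720.1 (P0 kidney) intensity units. Between 60.9% and 69.1% of the gene spots were well above background on each array, by the scanner software's flag. Where a probe was well above background on only 1 of the arrays compared, the dim side entered at the lowest level well above background there, or at its own level if that was higher, and the fold is then given as "at least". The median SD between replicate spots of a probe was 0.06 to 0.07 log2 units on an array, which covers neither labelling nor animals. The arrays of E13.5 kidney and 2-week transplant shared slide 1, and the others shared slide 2, so that slide and group cannot be told apart where P0 is set against E13.5, the 2-week transplant against P0, or one transplant against the other. The P0 array lacked a signal well above background for the Y-linked gene Ddx3y and the 8-week array lacked one for Xist, while the remaining arrays had both, so the sexes behind the arrays differ too. In such bulk RNA fewer cells of a type and less RNA per cell cannot be told apart. Most of the transporters are expressed in the proximal tubule, and the summed level of 16 proximal tubule markers was 3.41 times the 75th percentile in the E13.5 kidney, 110 times in the P0 kidney, 1998 times in the 8-week kidney, 22.9 times in the 2-week and 16.6 times in the 4-week transplant.

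The transporters did not share a single course. Of the 10 genes, 8 were highest in the 8-week kidney, all but Slc2a1, which was highest in the P0 kidney, and Slc2a4, which was highest in the 4-week transplant. The lowest level was in the E13.5 kidney for 7 genes, in the 2-week transplant for Slc2a1 and Slc2a5, and in the P0 kidney for Slc2a4. All 10 were well above background in the P0 kidney, the 8-week kidney and the 2-week transplant, 8 were in the 4-week transplant (all but Slc5a1 and Slc2a2) and 5 were in the E13.5 kidney (Slc5a10, Slc2a1, Slc2a4, Slc2a5 and Slc2a9).

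**Figure D1:**
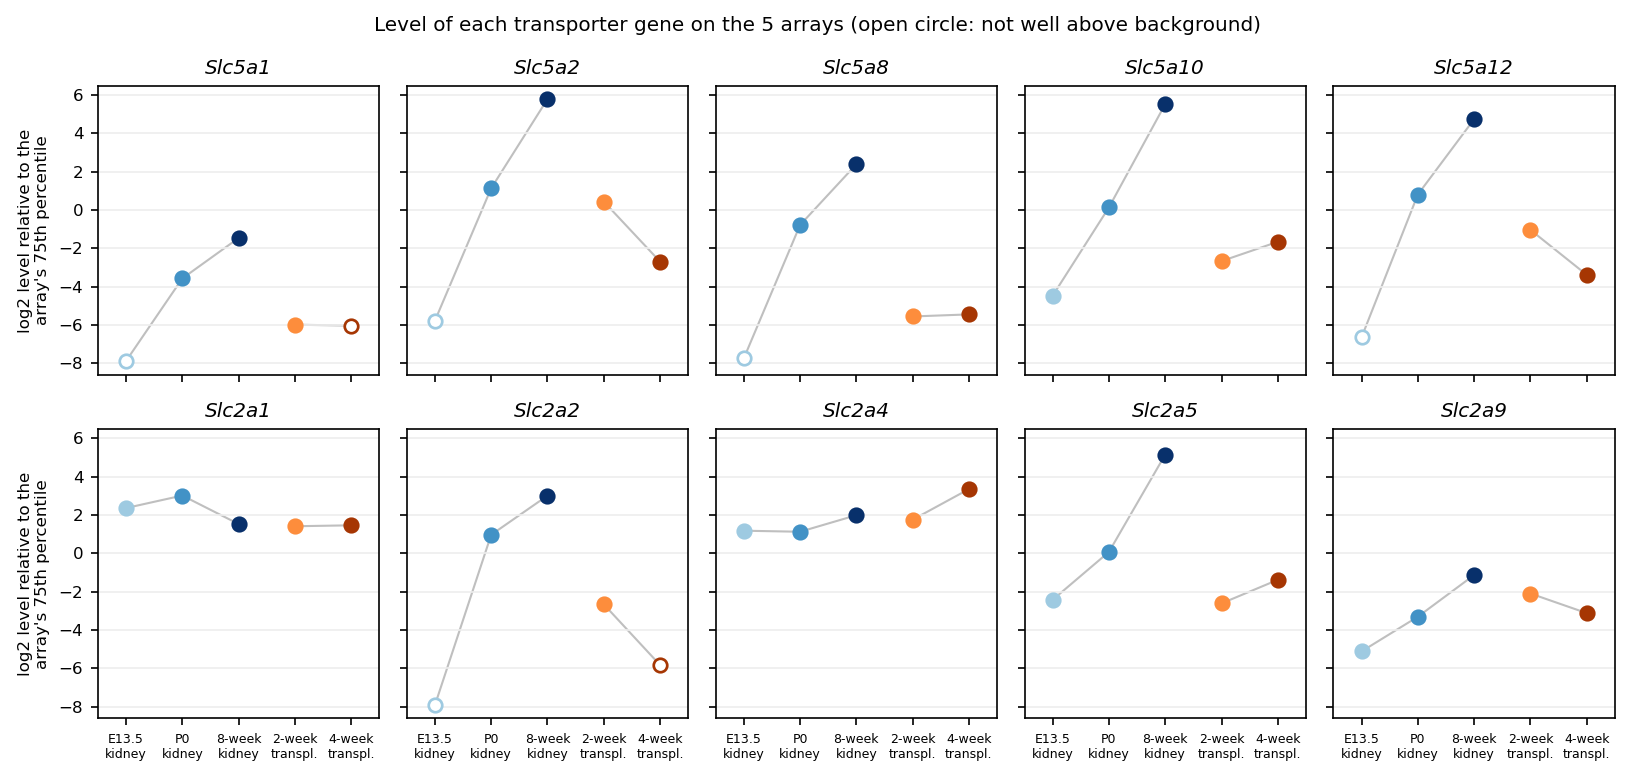
Log2 level of each of the 10 transporters (vertical axis, relative to the array's 75th percentile) on the 5 arrays (horizontal axis). Open circles are not well above background. Lines join the kidneys and, separately, the transplants, and the levels of Slc5a2, Slc5a12 and Slc2a2 are higher at 2 weeks than at 4 weeks in the transplants.

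Between E13.5 and P0, 7 of the 10 transporters were at least 4-fold higher in the P0 kidney and 0 were at least 4-fold lower. Over all 17572 genes compared, 6.24% were at least 4-fold higher and 1.83% lower. The median difference of the 10 was 3.55 log2 units, against -0.12 over all genes. The 7 genes were Slc5a1, Slc5a2, Slc5a8, Slc5a10, Slc5a12, Slc2a2 and Slc2a5, and for 5 of them the E13.5 side was a bound. Slc2a9 was 3.50-fold higher, and Slc2a1 and Slc2a4 were within 2-fold. Between P0 and 8 weeks of age, 8 of 10 were at least 4-fold higher and 0 lower, against 8.93% higher and 9.35% lower among 17657 genes, with a median of 2.67 against 0.07. Without the shift to the 75th percentile the median of all genes in that comparison moved to -0.42, and 28.0% of the called genes were higher in place of 48.9%. Under that scaling Slc2a2, Slc5a1 and Slc2a9 were 1.48, 1.55 and 1.62 log2 units higher in the 8-week kidney and so below the 4-fold mark, and the other 5 stayed past it.

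The 2-week transplant differed from both kidney stages. Against the E13.5 kidney, 4 transporters (Slc5a2, Slc5a12, Slc2a2 and Slc2a9) were at least 4-fold higher and 0 lower, where 11.3% of 18264 genes were higher and 5.42% lower. Against the P0 kidney, 5 transporters (Slc5a1, Slc5a8, Slc5a10, Slc2a2 and Slc2a5) were at least 4-fold lower and 0 higher, where 3.38% of 18322 genes were lower and 6.85% higher. The median of the 10 was 1.19 log2 units in the first of these comparisons and -2.12 in the second. In the 4-week transplant 5 transporters (Slc5a1, Slc5a2, Slc5a8, Slc5a12 and Slc2a2) were at least 4-fold lower than in the P0 kidney, where 4.36% of 18445 genes were, and Slc2a4 was higher, where 8.66% of genes were. Against the 8-week kidney 7 transporters were at least 4-fold lower, where 7.8% of 18309 genes were, and 0 were higher, where 11.7% of genes were. The median of the 10 was then -6.85. Without the shift 71.6% of the called genes in that comparison were higher in the transplant, in place of 60.1%. At a 2-fold threshold 8 of 10 were apart between the 2-week transplant and the P0 kidney, where 27.2% of genes were, and 7 of 10 between the transplants, where 14.8% were. Between the transplants at 4-fold, 3 transporters (Slc5a2, Slc5a12 and Slc2a2) were at least 4-fold lower at 4 weeks, where 1.02% of 18493 genes were lower and 2.44% higher, and without the shift 59.2% of the called genes were higher in place of 70.5%. Comparisons of both transplants with the P0 kidney share that array, and their values are not independent.

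**Figure D2:**
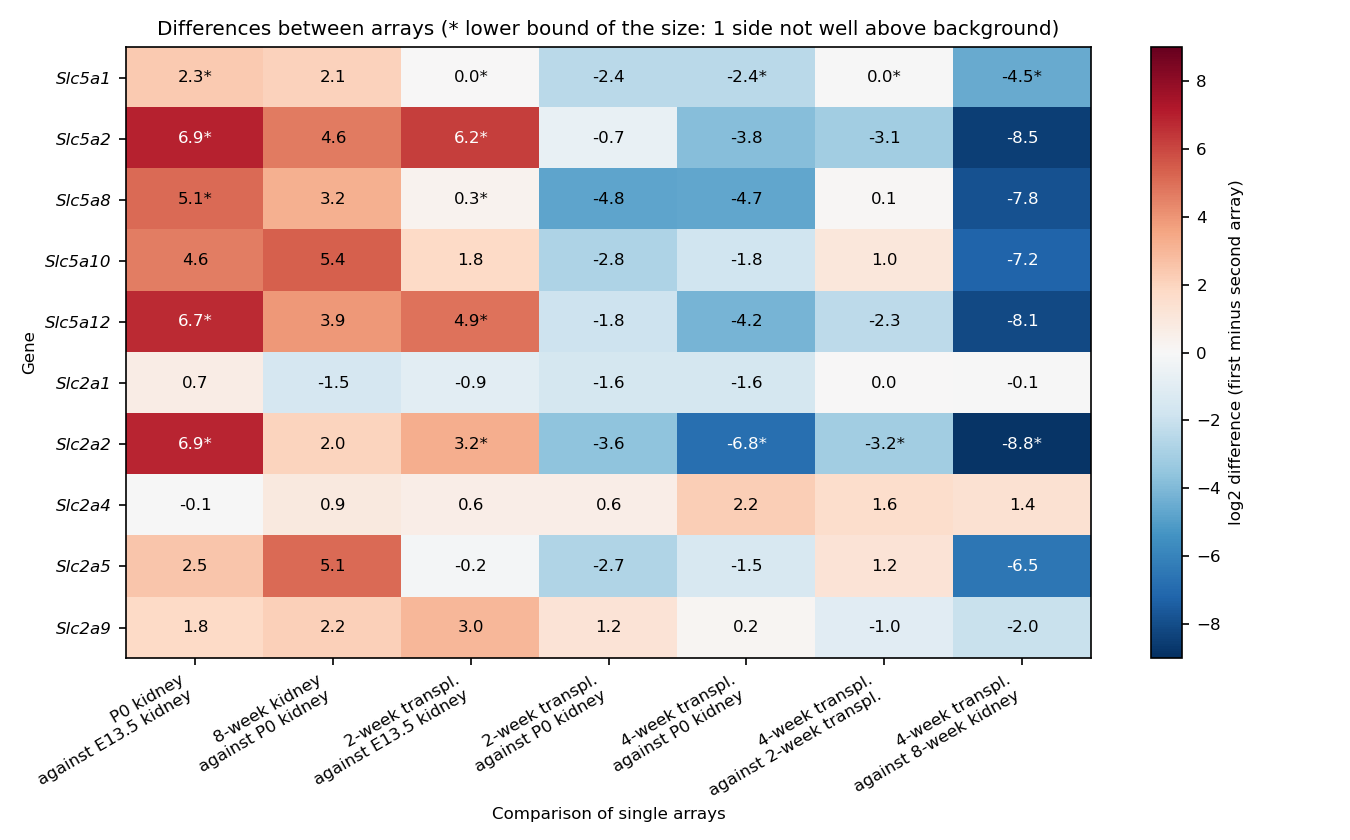
Log2 difference of each transporter (rows) in each of the 7 comparisons (columns), red for higher and blue for lower in the group named first, with bounds marked by an asterisk. The column for the 4-week transplant against the 8-week kidney holds 7 genes at least 4-fold lower, down to -8.83 for Slc2a2.

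Slc5a2 is the main luminal carrier for filtered glucose and is known as the target of the gliflozin drugs. Its level was -5.77 in the E13.5 kidney (not well above background), 1.13 at P0, 5.78 in the 8-week kidney, 0.44 in the 2-week transplant and -2.69 in the 4-week transplant. The 2-week transplant thus lay close to the newborn kidney, and the 4-week transplant lay below both but above the E13.5 array. The P0 kidney was at least 120-fold above the E13.5 kidney, and the 8-week kidney a further 25.0-fold above the P0 kidney. The 2-week transplant was at least 74.0-fold above the E13.5 kidney and 1.62-fold below the P0 kidney. The 4-week transplant was 8.74-fold below the 2-week transplant, 14.2-fold below the P0 kidney and 354-fold below the 8-week kidney. Of the 5 Slc5 genes, Slc5a2 had the smallest deficit against the P0 kidney at 2 weeks.

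Slc5a1, the high-affinity carrier of the late proximal tubule and the gut, was much dimmer in signal. Its level was -7.87 in the E13.5 kidney, -3.57 in the P0 kidney, -1.46 in the 8-week kidney, -5.98 in the 2-week transplant and -6.03 in the 4-week transplant, and the first and the last were not well above background. Both transplants were thus near the limit of detection, with intensities of 27.2 and 23.0 against 144.9 in the P0 kidney and 425.0 in the 8-week kidney. The 2-week transplant was 5.30-fold and the 4-week transplant at least 5.36-fold below the P0 kidney. The bound for the E13.5 kidney leaves no fold between it and the 2-week transplant. Markers of the late proximal tubule did not all share this low signal. Slc7a13, a cystine and aspartate carrier of that segment, was not well above background in either transplant (levels -8.40 and -6.16) and stood at 5.18 in the 8-week kidney. Slc22a7, an organic anion carrier, was at -5.96 in the 2-week transplant, at -6.08 and not well above background in the 4-week transplant, and at 6.15 in the 8-week kidney. Cyp7b1, a steroid hydroxylase of that segment, was instead at 0.78 and 0.45 in the transplants, near the P0 kidney at 0.45 and below the 8-week kidney at 5.46. Its level at P0 was, however, only 1.02-fold above the E13.5 kidney, where 15 of 16 proximal tubule markers were at least 4-fold higher at P0. Which cells gave its signal before 8 weeks of age and in the transplants was not tested.

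Slc5a10 (SGLT5), a sodium-coupled carrier of mannose and fructose found mostly in the kidney, had levels of -4.47, 0.14 and 5.52 in the E13.5, P0 and 8-week kidney, all well above background. It stood at -2.66 in the 2-week transplant and at -1.66 in the 4-week transplant. It differed from Slc5a2 in the order of the transplants, the 4-week array being the higher by 1.01 log2 units. The P0 kidney was 24.3-fold above the E13.5 kidney and the 8-week kidney 41.7-fold above the P0 kidney, the largest such step of the 10 transporters. The 2-week transplant was 6.97-fold and the 4-week transplant 3.47-fold below the P0 kidney.

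The sodium-coupled monocarboxylate carriers Slc5a8 (SMCT1, high affinity) and Slc5a12 (SMCT2, low affinity) take back lactate and related acids from the tubular fluid. Slc5a12 had a level of -6.64 in the E13.5 kidney (not well above background), 0.81 at P0, 4.73 in the 8-week kidney, -1.03 in the 2-week transplant and -3.38 in the 4-week transplant. A second probe for the gene gave -7.61 (not well above background), 0.95, 4.99, -0.92 and -3.41 on the same arrays. Both probes thus placed the 2-week transplant between the E13.5 and the P0 kidney and the 4-week transplant below it. By the first probe the P0 kidney was at least 104-fold above the E13.5 kidney. The 4-week transplant was, by that probe, 5.08-fold below the 2-week transplant and 18.2-fold below the P0 kidney.

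Slc5a8 was already far below the P0 kidney at 2 weeks, when Slc5a12 was 3.58-fold below it. Its level was -7.73 in the E13.5 kidney (not well above background), -0.78 at P0, 2.38 in the 8-week kidney, -5.55 in the 2-week transplant and -5.44 in the 4-week transplant. The 2-week transplant was 27.2-fold and the 4-week transplant 25.2-fold below the P0 kidney, and the 2-week transplant was at least 1.27-fold above the E13.5 kidney. The probe is printed 10 times on the array, and 3 of its spots were left out because the scanner software marked them as outliers on some array. On the 2-week array these 3 spots ranged from 29.0 to 675 intensity units, with a median of 150.8, while the 7 spots kept ranged from 25.4 to 47.7. With all 10 spots the 4-week minus the 2-week transplant was -0.54 log2 units, in place of 0.11, so the order of the transplants is not settled for this gene. The deficit against the P0 kidney at 2 weeks remained with all spots, at -4.14 in place of -4.77.

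**Figure D3:**
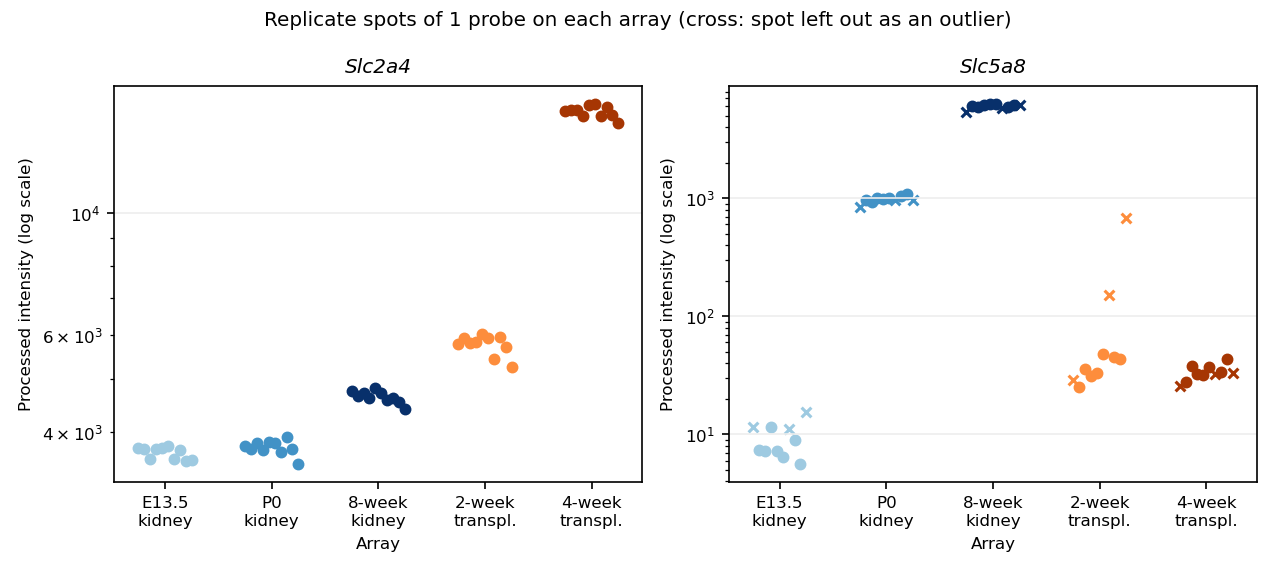
Intensity (log axis) of each of the 10 replicate spots of the Slc5a8 probe and of the Slc2a4 probe on the 5 arrays, with spots left out as outliers drawn apart from those kept. The Slc2a4 spots of the 4-week transplant lie between 14599 and 15801 and those of the 2-week transplant between 5247 and 6039, before scaling.

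Slc2a2 lets glucose out of proximal tubule cells and is also found in hepatocytes and beta cells. Its level was -7.92 in the E13.5 kidney (not well above background), 0.96 at P0 and 3.00 in the 8-week kidney. It was -2.66 in the 2-week transplant and -5.82 in the 4-week transplant (not well above background). Of the transplants, only the one at 2 weeks therefore had a signal well above background. The 2-week transplant was at least 9.42-fold above the E13.5 kidney and 12.3-fold below the P0 kidney. The 4-week transplant was at least 8.95-fold below the 2-week transplant, at least 110-fold below the P0 kidney and at least 454-fold below the 8-week kidney. These bounds were the largest deficits of the 10 genes against both kidneys.

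Slc2a1, the widely expressed carrier of basal glucose uptake, varied least. Its level was 2.36 in the E13.5 kidney, 3.01 in the P0 kidney, 1.52 in the 8-week kidney, 1.41 in the 2-week transplant and 1.46 in the 4-week transplant. The 8-week kidney and both transplants thus lay side by side, and their order changes with the scaling: the 4-week transplant minus the 8-week kidney was -0.07 log2 units, 0.14 after quantile normalization and 0.30 without the shift. The P0 kidney was 2.80-fold above the 8-week kidney, 3.03-fold above the 2-week and 2.93-fold above the 4-week transplant. Slc2a1 reached 4-fold in none of the 7 comparisons by this scaling, and in 1 without the shift (the 8-week minus the P0 kidney, -2.04 log2 units). Among 15 glycolysis enzymes, 0 were at least 4-fold higher and 1 was lower in the 2-week transplant than in the P0 kidney (median -1.05), and at 4 weeks 0 were apart by that much (median -0.58). Over all genes 3.38% were lower and 6.85% higher at 2 weeks, and 4.36% and 8.66% at 4 weeks. At 2-fold, 8 of the enzymes were lower and 0 higher at 2 weeks, and 3 were lower and 1 higher at 4 weeks. Hk2, a hexokinase of growing and insulin-sensitive tissues, was not well above background in the 8-week kidney (level -7.18) and stood at -1.12 in the P0 kidney, -1.17 in the 2-week and 0.45 in the 4-week transplant. Of 8 hypoxia-inducible genes, 0 were at least 4-fold higher and 2 were lower than in the P0 kidney in each transplant, with medians of -1.03 at 2 weeks and -0.64 at 4 weeks.

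Slc2a5 (GLUT5) carries fructose across the luminal membrane of the late proximal tubule and the gut. Its level was -2.42 in the E13.5 kidney, 0.07 in the P0 kidney, 5.14 in the 8-week kidney, -2.61 in the 2-week transplant and -1.38 in the 4-week transplant, all well above background. The transplants thus lay nearer to the E13.5 kidney than to the adult one. The 8-week kidney was 33.6-fold above the P0 kidney, and the 2-week and 4-week transplants were 6.43-fold and 2.74-fold below the P0 kidney. Slc2a5 shared with Slc5a10 a level that was higher at 4 weeks than at 2 weeks, by 1.23 log2 units (2.35-fold). Of 7 enzymes and carriers of renal fructose use and glucose output, 7 were at least 4-fold higher in the 8-week kidney than at P0 (median 2.95), and 3 were at least 4-fold lower in the 2-week transplant than in the P0 kidney (median -1.80). Khk, the ketohexokinase that starts fructose breakdown, stood at 2.40 in the P0 kidney, 7.18 in the 8-week kidney, 2.07 in the 2-week and 2.00 in the 4-week transplant. Pck1 acts in glucose synthesis from lactate and also serves glycerol production in fat. It was the 1 gene of this list at least 4-fold higher in the 4-week transplant than at P0, at 4.73 against 2.27.

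Slc2a9 (GLUT9) returns urate to the blood. Its level was -5.11 in the E13.5 kidney, -3.31 in the P0 kidney, -1.13 in the 8-week kidney, -2.10 in the 2-week transplant and -3.12 in the 4-week transplant. It was the only one of the 9 genes other than Slc2a4 whose level was higher in the 2-week transplant than in the P0 kidney, by 2.31-fold. The 4-week transplant was 1.14-fold above the P0 kidney, a difference that turned to -0.08 log2 units after quantile normalization. With normexp background correction its 8.09-fold excess in the 2-week transplant over the E13.5 kidney turned to -0.72 log2 units, under a background fit that failed on the E13.5 array. Other genes of urate handling were lower. Of 7, 4 were at least 4-fold below the P0 kidney in each transplant and 0 above, with medians of -3.57 at 2 weeks and -4.11 at 4 weeks. Slc22a12 (URAT1), the luminal urate exchanger, had levels of -1.12 in the P0 kidney, 4.78 in the 8-week kidney, -4.68 in the 2-week and -5.22 in the 4-week transplant.

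Slc2a4, the carrier that insulin brings to the surface of adipocytes and muscle fibres, was highest in the 4-week transplant. Its level was 1.18 in the E13.5 kidney, 1.12 in the P0 kidney, 1.98 in the 8-week kidney, 1.75 in the 2-week transplant and 3.35 in the 4-week transplant. Its probe has 10 spots, with an SD between 0.04 and 0.06 log2 units on each array. Before scaling, the 10 spots of the 4-week transplant ranged from 14599 to 15801 intensity units and those of the 2-week transplant from 5247 to 6039. Those of the 8-week kidney ranged from 4395 to 4802, of the E13.5 kidney from 3540 to 3773 and of the P0 kidney from 3500 to 3910. After scaling the 8-week kidney was the next highest, at 1.98 against 1.75 in the 2-week transplant. Spots of 1 probe on 1 array give no spread between samples. The 4-week transplant was 4.67-fold above the P0 kidney, 3.03-fold above the 2-week transplant and 2.57-fold above the 8-week kidney. The 2-week transplant was 1.54-fold above the P0 kidney.

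Adipocyte markers were also higher in both transplants than in the P0 kidney, and by far more than Slc2a4, which was 1.54-fold above it at 2 weeks. Of 10, 9 were at least 4-fold higher in the 2-week transplant than in the P0 kidney and 0 lower (median 7.59), and 10 were in the 4-week transplant (median 9.45). Their summed level was 3.27 times the 75th percentile in the E13.5 kidney, 34.5 in the P0 kidney, 26.4 in the 8-week kidney, 233 in the 2-week and 593 in the 4-week transplant. The median level of the 10 was -5.78, -5.51 and -4.49 in the kidneys and 3.37 and 5.13 in the transplants. In the P0 and the 8-week kidney 6 were well above background. Only 1, Fabp4 (20.6-fold), was at least 4-fold higher at P0 than at E13.5. At 8 weeks Fabp4 was 7.91-fold below and Lpl 17.5-fold above P0. Adipoq, the adipocyte hormone adiponectin, was not well above background in any kidney and stood at 3.89 and 5.36 in the transplants. For 6 brown fat markers the summed level was 4.67 in the P0 kidney, 11.0 in the 8-week kidney, 114 in the 2-week and 327 in the 4-week transplant. Of the 5 that could be compared with P0, 4 were at least 4-fold higher and 0 lower in each transplant. Ppargc1a went the other way, 2.69-fold below the P0 kidney at 2 weeks and 2.54-fold at 4 weeks. Ucp1, the uncoupling protein of brown fat, stood at 4.20 and 4.73 in the transplants and was not well above background in the kidneys. Striated muscle, the other main site of Slc2a4, had a summed level over 15 markers of 2.99 in the 2-week and 2.95 in the 4-week transplant, against 2.59 in the P0, 0.67 in the 8-week and 11.2 in the E13.5 kidney. Of the 11 muscle markers that could be compared with P0, 2 were at least 4-fold higher and 1 lower in the 4-week transplant (median -0.46), and of the 10 compared with the 8-week kidney 5 were higher and 0 lower (median 1.94). The 2 genes above P0 were Mb, the oxygen-binding myoglobin, at least 9.94-fold, and Ttn, the giant sarcomere protein titin, 6.35-fold. The markers Ckm, Myh1, Myh2 and Myh4, which encode muscle creatine kinase and myosins of adult fibres, were not well above background in either transplant. The part of fat and of muscle in the level of Slc2a4 was not tested. Tbc1d4, which holds Slc2a4 inside the cell until insulin acts, had levels of -0.18 in the P0 kidney, -0.98 in the 8-week kidney, -0.06 in the 2-week and 1.03 in the 4-week transplant.

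**Figure D4:**
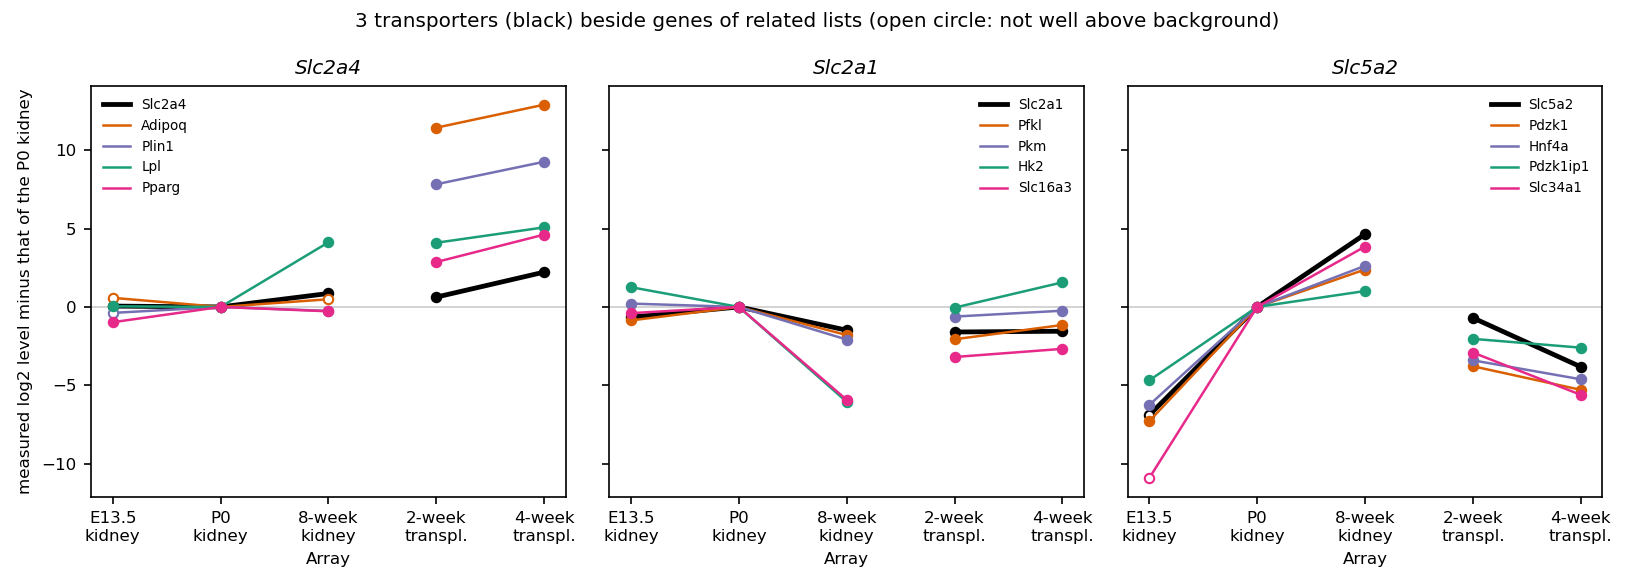
Measured log2 level less that of the P0 kidney (vertical axis) on the 5 arrays for Slc2a4, Slc2a1 and Slc5a2 (black) and for 4 genes of related lists each, chosen after their values were seen. Open circles are not well above background, and Slc2a4 is 2.22 log2 units above the P0 kidney in the 4-week transplant where Adipoq, Plin1, Lpl and Pparg are also above it.

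The transporters of the proximal tubule can be set beside its other genes. The shares of all genes called in each comparison, given above, apply to every gene list counted here. Of 16 proximal tubule markers, 15 were at least 4-fold higher in the P0 than in the E13.5 kidney (median 5.40) and 16 in the 8-week kidney than at P0 (median 4.11). In the 2-week transplant 9 of 16 were at least 4-fold below the P0 kidney and 0 above (median -2.65). In the 4-week transplant 13 were below and 0 above (median -3.30). Against the 2-week transplant 4 of the 15 that could be compared were lower at 4 weeks and 0 higher (median -0.78), and the median of the 10 transporters in that comparison was 0.02. The phosphate carrier Slc34a1 was also lower at 4 weeks, at 0.48 and then -2.22, while the fatty acid carrier Slc27a2 was higher at 4 weeks, at -0.15 and then 0.79. Distal nephron markers were lower too. Of 6, 3 were at least 4-fold below the P0 kidney at 2 weeks (median -1.85) and 4 at 4 weeks (median -2.17), with 0 above. Between the transplants 2 of them were lower at 4 weeks and 0 higher (median -1.78). Podocyte markers went the other way from most of the transporters: 2 of 6 were at least 4-fold higher in the 2-week transplant than in the P0 kidney and 0 lower (median 1.84). At 4 weeks 0 podocyte markers were apart by that much (median 0.94). Of 7 adrenal cortex markers, 7 were at least 4-fold higher in the 4-week than in the 2-week transplant (median 10.2), with a summed level of 0.30 at 2 weeks and 207 at 4 weeks. The 8 macrophage markers were all at least 4-fold above the P0 kidney in both transplants, with summed levels of 69.2 and 47.4 against 7.23. What these other tissues contribute to the levels of the transporters was not tested.

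**Figure D5:**
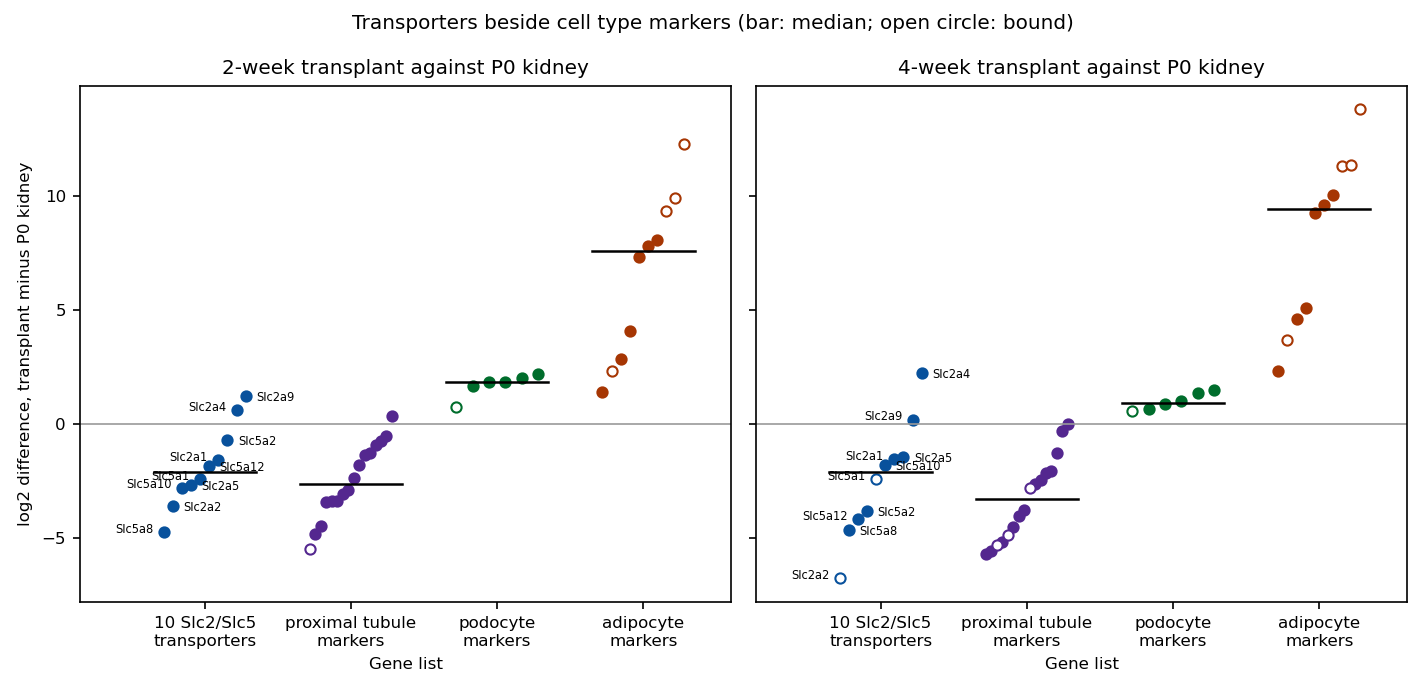
Log2 difference from the P0 kidney (vertical axis) in the 2-week transplant (left) and the 4-week transplant (right) for the 10 transporters and for proximal tubule, podocyte and adipocyte markers. Each circle is a gene, open circles are bounds and the bar is the list's median, which for the transporters is -2.12 and -2.11.

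Among 14 regulators and partners of the transporters, 7 were at least 4-fold higher in the P0 than in the E13.5 kidney and 0 lower (median 1.88). In each transplant 5 were at least 4-fold below the P0 kidney, while 0 were above it at 2 weeks and 1 at 4 weeks, with medians of -0.54 and -0.41. The 1 gene above was Mlxipl (ChREBP), a glucose-responsive factor of lipid synthesis, with levels of -1.77, -0.25 and 3.48 in the kidneys, 0.09 in the 2-week and 2.50 in the 4-week transplant. Hnf4a, a nuclear receptor of the proximal tubule, ran from -2.55 to 3.71 and 6.33 in the kidneys and stood at 0.30 and -0.91 in the transplants. Pdzk1ip1 (MAP17), the small partner that Slc5a2 needs for activity, stood at 1.23, 5.92 and 6.93 in the kidneys and at 3.88 and 3.32 in the transplants. Txnip, a glucose-responsive brake on glucose uptake that acts on Slc2a1 and Slc2a4, was also higher, by less than 4-fold, in both transplants, at 4.18 and 4.49, than in the P0 kidney at 2.69 and the 8-week kidney at 3.13.

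The rest of the families was also on the array, with 7 further Slc2 genes and 8 further Slc5 genes. Slc5a11 (SMIT2), a myo-inositol carrier of the proximal tubule, ran like Slc2a2, with levels of -5.22, 0.81 and 3.62 in the kidneys and -2.69 and -4.53 in the transplants. Slc5a9 (SGLT4), a mannose carrier, had -5.36, -1.91 and -0.07 in the kidneys and -3.47 and -3.70 in the transplants. Slc5a6, the carrier of biotin and pantothenate, was at 2.70 and 2.18 in the transplants, above the P0 kidney at 0.77 and near the 8-week kidney at 2.88. Slc2a6 stood out in the Slc2 family, with levels of -3.56, -4.35 and -4.06 in the kidneys and -0.74 and -0.41 in the transplants. It was 12.2-fold above the P0 kidney at 2 weeks and 15.4-fold at 4 weeks. Slc2a3 (GLUT3), a high-affinity glucose carrier of neurons and blood cells, was at -1.50 and -0.82 in the E13.5 and P0 kidney, not well above background in the 8-week kidney (level -5.16) and at -2.43 and -2.17 in the transplants. Slc2a10 also had its lowest level in the 8-week kidney, at -5.14. Slc2a8, Slc2a12 and Slc2a13 were within 2-fold of the P0 kidney in both transplants. Slc5a3, a myo-inositol carrier induced by hypertonicity, stood at -2.11, -1.83 and -0.19 in the kidneys and at -2.12 and -1.69 in the transplants. Slc5a4a was well above background in the 8-week kidney alone, Slc5a5 and Slc5a7 in the 4-week transplant alone, and Slc2a7 and Slc5a4b on no array.

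The genes with the most similar courses were found by distance, as the root mean square difference over the 5 arrays after each gene's own mean was taken off, among 16808 genes. This describes 5 single arrays, whose tissue makeup differs, and has no test. For Slc5a2 the nearest gene was Slc5a12, at 0.49 log2 units, followed by Aadac (0.51), Keg1 (0.60), Slc7a9 (0.63) and Glyat (0.65). For Slc5a12 they were Slc7a9 (0.15), the light subunit of the brush-border cystine carrier, then Cltrn (0.31), Erich4 (0.41) and Agxt2 (0.45). For Slc2a2 they were Prodh2 (0.49), Slc5a11 (0.52), Pdzk1 (0.67), Sult1d1 (0.70) and Asb9 (0.72). Many of these are known from the proximal tubule or the liver. For Slc2a1, whose course is shallow, they were Hoxb4 (0.09), Tomm20l (0.10), Dynlt1f (0.14), Smyd3 (0.15) and Tmsb15l (0.17). For Slc2a4 they were Sh3rf2 (0.10), Efhb (0.12), Olfr173 (0.12), Ctso (0.13) and Csmd1 (0.15), each of which was not well above background on at least 2 arrays and entered there at the floor. Among the 10 transporters the closest pairs were Slc5a2 and Slc5a12 (0.49), Slc5a10 and Slc2a5 (0.85) and Slc5a12 and Slc2a2 (1.03), and Slc5a2 and Slc2a1 were the furthest apart (4.05).

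The 250 bases before the transcription start were given by RefSeq (GRCm38.p6) for 7 of the 10 genes, in 8 windows. Slc5a2, Slc5a12 and Slc2a4 were not among them. The windows were searched on both strands for 3 motifs: GGGCGG, the GC box bound by Sp1-type factors, and ACGTG and GCGTG, the core letters of hypoxia response elements. Of 32851 windows of the same length, 32.7% held GGGCGG, 16.6% ACGTG and 28.2% GCGTG, and the median GC content was 52.4%. The 3 windows printed next are those of the gene with the flattest course (Slc2a1), of the fructose carrier with a steep course (Slc2a5) and of the exit carrier with the largest deficit in the 4-week transplant (Slc2a2). They are written 5′ to 3′ on the gene's strand, with motif matches on either strand in capitals, adjoining matches running together.
Slc2a1 (chr4:119108495-119108744, plus strand): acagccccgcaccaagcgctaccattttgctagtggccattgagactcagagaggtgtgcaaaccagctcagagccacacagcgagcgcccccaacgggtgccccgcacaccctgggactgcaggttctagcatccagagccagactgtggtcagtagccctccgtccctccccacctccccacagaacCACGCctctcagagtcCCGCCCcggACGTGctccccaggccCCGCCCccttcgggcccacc
Slc2a5 (chr4:150119094-150119343, plus strand): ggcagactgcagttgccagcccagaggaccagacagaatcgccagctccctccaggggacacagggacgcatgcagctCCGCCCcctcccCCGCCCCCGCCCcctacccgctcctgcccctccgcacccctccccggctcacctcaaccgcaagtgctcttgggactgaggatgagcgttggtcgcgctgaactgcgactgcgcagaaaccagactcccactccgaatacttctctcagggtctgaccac
Slc2a2 (chr3:28697653-28697902, plus strand): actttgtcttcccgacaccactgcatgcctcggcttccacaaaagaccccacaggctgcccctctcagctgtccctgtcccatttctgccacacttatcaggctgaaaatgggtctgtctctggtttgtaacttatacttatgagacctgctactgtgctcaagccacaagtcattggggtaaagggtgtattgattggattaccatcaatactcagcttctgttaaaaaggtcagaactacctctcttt
The Slc2a1 window had a GC content of 66.4% and held 2 GC boxes, the nearer at 20 bases before the start, with ACGTG at 36 bases and GCGTG at 61 bases. The Slc2a5 window had the same GC content, 66.4%, and 3 GC boxes, the nearest at 154 bases, although the 2 genes had unlike courses. The Slc2a2 window had a GC content of 47.2% and none of the 3 motifs. The windows not printed held 3 GC boxes and 1 GCGTG (Slc5a8), 2 overlapping ACGTG matches on opposite strands and 1 GCGTG (Slc5a1) and none of the motifs (Slc2a9 and both windows of Slc5a10). These matches describe letters and show no binding.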

How the data were processed

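Total RNA was prepared with a column kit and labelled with Cy3 for 1 array per group, per the labels' protocols. The scanner files that the authors deposited hold, per spot, an intensity that Agilent Feature Extraction 10.7.3.1 had background-subtracted and detrended, with other columns of flags (well above background, saturated, outlier), per the file headers. The authors' deposited gene table holds log2 values centred per row. A shift to the 75th percentile is named in its title, but 99.5% of its values lay within 0.01 of unshifted values and 18.2% of shifted ones, and its column medians ran from -0.08 to 0.05.

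From these, log2 intensity less the array's 75th percentile over gene spots was computed (Python 3.11.15). Outlier spots (447 gene spots) were left out, and 0 spots were saturated. Replicate spots were averaged, and each gene was represented by its probe of highest mean level. A probe counted as well above background where more than 0.5 of its spots did. Of 39414 probes, 31781 were named by gene identifier through RefSeq (GRCm38), 2026 by the authors' symbol and 19 by accession, and 5588 stayed unnamed. A bound that would have turned a direction entered as 0, and genes dim on both arrays were left out. Calls used a 4-fold difference, with no test. The steps were tested on simulated data.

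The genes named are the 10 transporters, all other Slc2 and Slc5 genes, genes of the lists, and the 5 nearest courses of 5 transporters. Some genes within this rule are left unreported. The transporters and lists were chosen with earlier results of these data known. Alternatives were normexp background correction (limma 3.58.1, offset 50, on median signals, or with 153 negative control spots per array), quantile normalization, no shift, the authors' table, the mean over probes, other background filters, a 2-fold threshold and, chosen after seeing the data, outlier spots kept. The array design's own coordinates are on mm9, so no gene coordinates are given, and the promoter windows are placed on GRCm38.p6.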

Additional observations from a re-analysis of the deposited data

Results flagged for a closer look

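The courses of 4 transporters ran in opposite directions in the kidneys and the transplants, each by more than 2-fold. The difference was not tested, since each group had 1 array, and the share of all genes with such courses was not computed. The later minus the earlier transplant (4 against 2 weeks), less the 8-week minus the P0 kidney, came to -7.77 log2 units for Slc5a2, -6.27 for Slc5a12, -5.20 for Slc2a2 (a bound) and -3.20 for Slc2a9. In the kidneys these genes were higher at 8 weeks of age than at P0 by 4.64, 3.93, 2.04 and 2.17, and in the transplants the 4-week minus the 2-week level was -3.13, -2.34, -3.16 (a bound) and -1.02. The spans of time differ, and the transplants also differed in slide and in their adipocyte and adrenal cortex markers, whose part was not tested. For Slc2a2 the kidney step lay near 4-fold and was 1.48 without the shift. For Slc2a9 the step between the transplants, 2.03-fold, lay near the 2-fold mark. The 4 genes were picked from these same values, so their differences had to be large. Slc5a10 and Slc2a5, higher at the later time in both courses, came to -4.38 and -3.84, further from 0 than Slc2a9.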

How the results depend on the processing

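No paired analysis was possible because each group had 1 array, and for the same reason no array could be left out and slide could not be fitted. Of 40 transporter differences past 4-fold, the number kept was 25 with normexp, 33 with normexp on negative controls, 39 with quantile normalization, 37 without the shift, 37 in the authors' table, and 40 each with the mean over probes, no filter and outlier spots kept. Requiring both arrays well above background left 27 of them, all kept, since that rule does not change the values it keeps. The mean over probes could change only Slc5a12, which has a second probe. Among the probes used, spots had been left out for Slc5a8 alone, and dropping the filter and bounds cannot shrink a difference past 4-fold. These settings were therefore weak checks. Of all 70 differences, 1 past 4-fold changed its sign: Slc2a9 in the 2-week transplant against the E13.5 kidney, at -0.72 with normexp (3.02 before). The background mean it fitted was -992 for the E13.5 kidney and 20.7 to 27.5 for the rest, and with it 8.66% of called genes were higher in the P0 than in the E13.5 kidney (77.3% before) and 15.5% in the 2-week transplant than in the E13.5 kidney (67.7% before).

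With normexp the count of transporters past 4-fold was 3 in place of 7 (P0 against E13.5 kidney), 5 in place of 8 (8-week against P0 kidney), 0 in place of 4 (2-week transplant against E13.5 kidney) and 1 in place of 3 (4-week against 2-week transplant, also 1 with negative controls). Beyond the failed fit, its cause was not tested. Requiring both arrays well above background gave 2 and 1 in the comparisons of the P0 kidney and of the 2-week transplant with the E13.5 kidney, since dim genes drop out. At 2-fold the counts were 8 for the 2-week transplant against the P0 kidney (5 at 4-fold) and 7 between the transplants (3 at 4-fold). The authors' table gave 29.0% of called genes higher in the 8-week kidney than at P0 and 71.9% in the 4-week transplant than in the 8-week kidney. Signals near background limit Slc5a1 and Slc5a8 in the transplants, Slc2a2 in the 4-week transplant and 5 genes at E13.5.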

Other observations

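The monocarboxylate carriers of the Slc16 family, which need no sodium and move lactate, pyruvate and some amino acids and hormones with their chaperones Bsg and Emb, were measured with 16 genes, all of them well above background on all 5 arrays. Of these, 6 were at least 4-fold higher in the P0 than in the E13.5 kidney and 0 lower (median 0.80), where 6.24% of all genes were higher and 1.83% lower. Between P0 and 8 weeks of age 8 were higher and 1 was lower (median 1.98), where 8.93% of all genes were higher and 9.35% lower. Against the P0 kidney, 1 was at least 4-fold higher and 2 lower in the 2-week transplant (median 0.50), and 3 were higher and 2 lower in the 4-week transplant (median 0.14), so that most lay within 4-fold. Slc16a3 (MCT4), the lactate exporter of glycolytic cells, was the 1 gene lower in the 8-week kidney, with levels of 2.09, 2.49 and -3.44 in the kidneys and -0.71 and -0.19 in the transplants. Slc16a11 stood at -0.04 in the P0 kidney, 3.04 in the 8-week kidney and 3.05 and 1.83 in the transplants. Emb, a chaperone of these carriers, was 3.41-fold and 4.06-fold above the P0 kidney at 2 and 4 weeks. Slc16a4, by contrast, had a course like the sodium-coupled carriers, with -4.80, -0.16 and 2.88 in the kidneys and -1.85 and -2.06 in the transplants. Slc16a8, at -4.67 in the 2-week transplant, reached -1.09 in the 4-week transplant, the 1 gene of the list at least 4-fold apart between the transplants.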
